A study of Mus musculus with 6 samples.

Results

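Heat shock proteins and their J-domain partners were followed in hearts of mice whose glucocorticoid receptor gene (Nr3c1) was deleted in cardiomyocytes. The set holds 31 genes, taken by symbol in the GRCm38 annotation from the 52550 mouse genes that each count file lists. All 31 were found and all 31 passed the filter on low counts, which kept 14860 genes. They were divided into 7 role lists: 6 stress-inducible cytosolic chaperones, 4 small heat shock proteins of muscle, 4 constitutive cytosolic members of the Hsp70 and Hsp110 families, 6 constitutive J-domain genes, 5 chaperones of the endoplasmic reticulum (ER), 4 of mitochondria and 2 heat shock factors. The roles were assigned and not measured here, so genes listed outside the inducible set may also respond to stress.

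The samples were whole hearts of mice at postnatal day 7, 3 with the genotype label ctrl (control) and 3 with the label GR-cKO. The labels give neither the Cre line, the deleted exon, the alleles of the controls nor the strain and sex, while the 3 libraries of each genotype are described as biological replicates. Whether each came from 1 heart or from pooled hearts is not stated, and the text calls each library a heart. RNA was sequenced from the 3′ end of polyadenylated transcripts (QuantSeq), so longer transcripts do not give more reads. A whole heart holds cell types that were not targeted, and fewer cells of a type cannot be told apart from less RNA per cell.

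Libraries held 18135540 to 22999192 reads. Levels below are reads of a gene scaled to a common library size (CPM, after trimmed mean of M-values scaling). Values of 3 hearts are always in the order of replicates 1, 2 and 3, and means are given with the SD over n = 3, control against GR-cKO. Nr3c1 had 114, 131 and 99.7 CPM in the controls and 57.6, 49.2 and 56.2 CPM in the GR-cKO hearts, a log2 fold change of -1.08 (edgeR adjusted p = 0.00101), as the labels have it, although a 3′ read outside the deleted part does not measure the deletion. Markers of heart muscle were abundant in each library, with the 8 listed genes together at 66156 to 77792 CPM in control and 72356 to 87891 CPM in GR-cKO hearts. GR-cKO replicate 3 stood apart from the other hearts: Gm42418, a transcript over a ribosomal RNA repeat, took 10.7% of its reads against 5.38 to 7.54% elsewhere.

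Chaperones bind unfolded proteins and, many of them with ATP, let them fold, refold or pass to degradation. Hsp70 proteins do this in a cycle in which J-domain proteins (the DnaJ family) deliver clients and stimulate ATP hydrolysis, and Hsp110 proteins exchange the nucleotide. Each compartment has its own set: the cytosol, the ER, where secreted and membrane proteins fold, and the mitochondrial matrix. Heat shock factor 1 drives the inducible cytosolic genes when unfolded proteins accumulate, and the ER set answers to a separate unfolded protein response. In heart muscle small heat shock proteins guard the contractile filaments. Before it binds hormone, the glucocorticoid receptor is itself held by Hsp70 and Hsp90 machines.

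None of the 31 genes passed the edgeR quasi-likelihood test over all genes, and their adjusted p-values ran from 0.998 to 1. The background was as sparse, with 0% of tested genes called higher and 0.00673% called lower, the latter being Nr3c1 alone. At an unadjusted p under 0.05, 1 member was higher (Dnajb5) and 1 was lower (Dnajb9), against 2.07% and 2.13% of all tested genes, or 4.2% in both directions. DESeq2 and limma voom also called 0 members. Of the 31 fold changes 22 were below 0 and 9 above it, with a median log2 fold change of -0.07; over all tested genes 48.7% lay below 0 and 51.3% above, with a median of 0.01. The GR-cKO hearts lay entirely below the controls for 4 members (Dnajb1, Hsp90b1, Dnajb9 and Hspd1) and entirely above them for 0, where 5.27% and 4.7% of all tested genes did so, or 9.97% together. Over the alternatives 18 to 24 were below 0, with 24 without GR-cKO replicate 2. The lowest median was -0.12 (without control replicate 3 or without GR-cKO replicate 2) and the highest -0.01 (with spike-in scaling). Without GR-cKO replicate 3 it was 21 below 0 and a median of -0.05, and with control replicate 2 left out 18 and -0.04. These counts below 0 under alternatives were added after seeing the data. Summed over the 31 genes the controls had 3346, 3302 and 3246 CPM. GR-cKO hearts had 3055, 3210 and 3206 CPM, without overlap. As shares of mouse reads, before scaling, the groups overlapped. These shares were 0.339, 0.335 and 0.328% in the controls and 0.307, 0.339 and 0.290% in the GR-cKO hearts.

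The measurement was precise enough to bound most of these differences. For 29 of the 31 members the 95% interval lay within a 2-fold change both ways, which held for 72.2% of all tested genes; the exceptions were Hspa1b and Dnajb5. A 1.5-fold change was excluded for 24 members and for 47.7% of all tested genes. Across the 6 hearts the steadiest member was Hspa9, whose highest level was 1.08 times its lowest, and the most variable was Hspa1b, at 3.67 times. Control replicate 2 held the highest level of 10 members (17.9% of all tested genes peaked there), and GR-cKO replicate 3 the lowest level of 10 (22% of all tested genes).

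**Figure D1:**
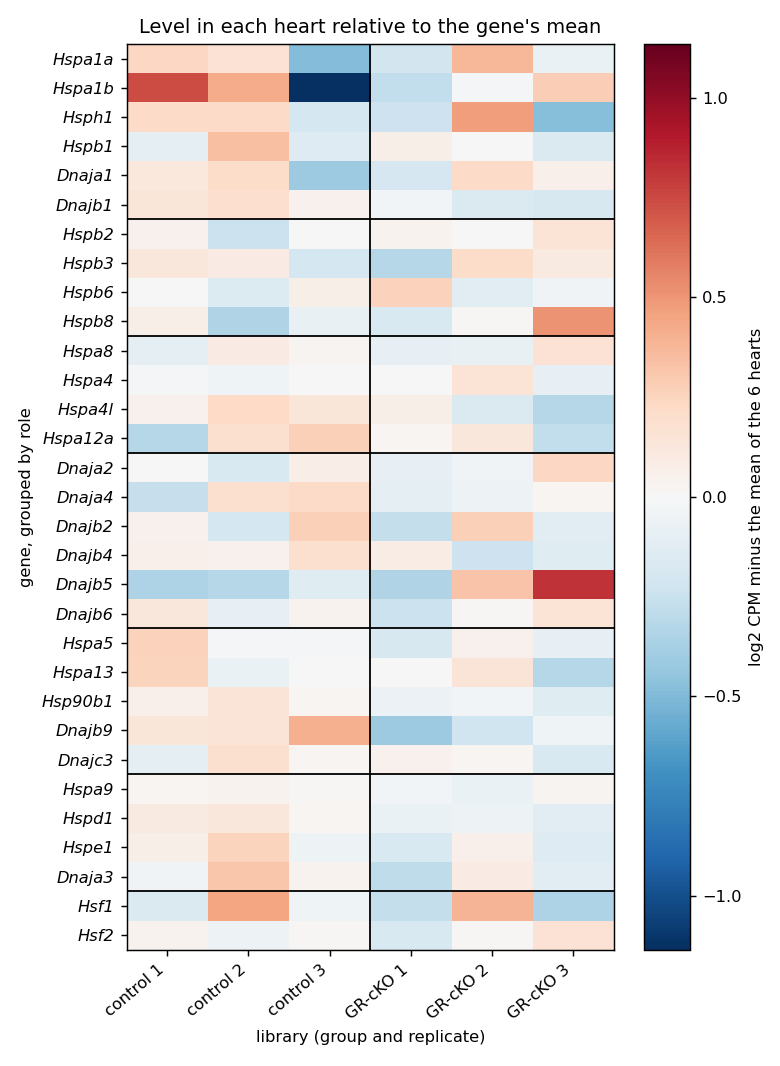
Level of each of the 31 chaperone genes (rows, grouped by role) in each heart (columns), as log2 CPM minus the gene's mean over the 6 hearts. Red is above and blue below the gene's mean; Hspa1b in control replicate 3 and Dnajb5 in GR-cKO replicate 3 are the deepest cells, and most rows show no step between the groups.

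**Figure D2:**
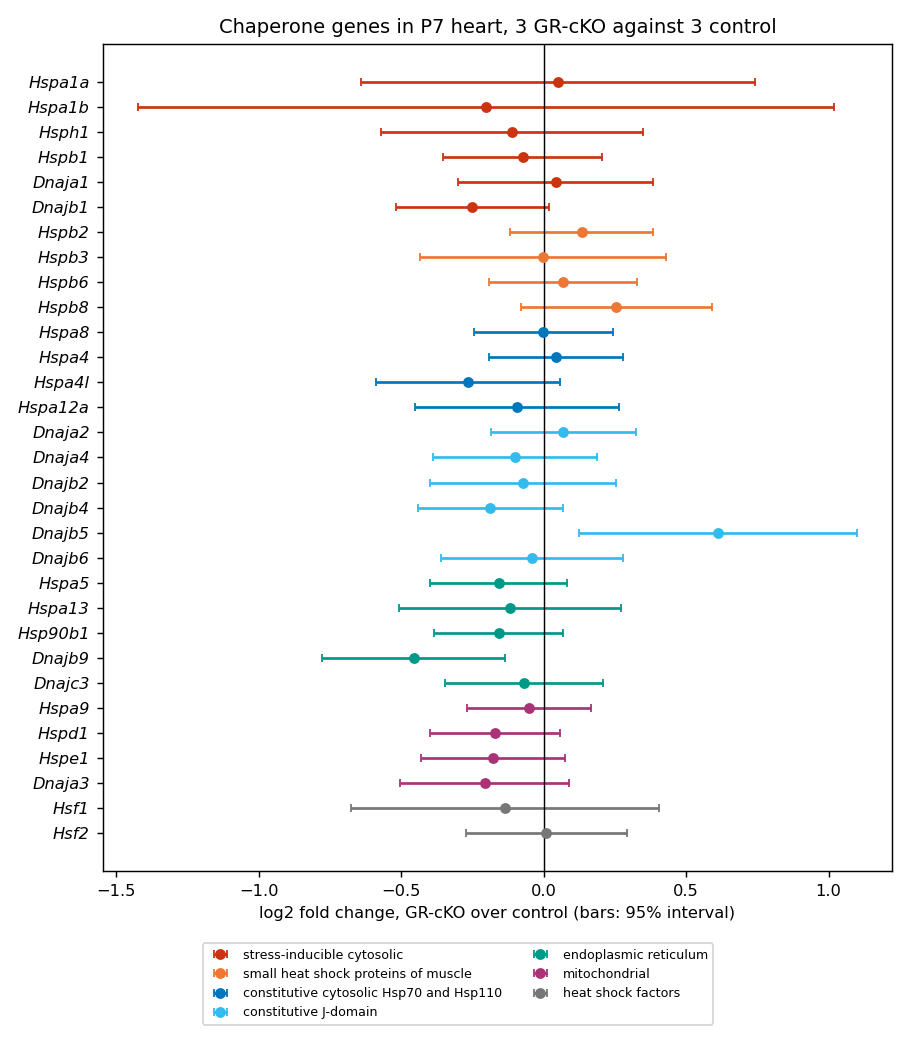
Log2 fold change of GR-cKO over control for each chaperone gene, coloured by role, with the 95% interval of the edgeR fit as bars. The intervals of Dnajb5 and Dnajb9 alone exclude 0, and neither gene passes after adjustment over all genes.

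None of the 6 stress-inducible cytosolic chaperones passed the test. Only Dnajb1 separated the groups, with every GR-cKO heart lower, as held for 5.27% of all tested genes. The pair Hspa1a and Hspa1b encode the inducible Hsp70 and lie side by side on chromosome 17 (Hspa1a 34969190 to 34972156, Hspa1b 34956436 to 34959238, both minus strand, GRCm38). Both were scarce. Hspa1a had 4.33, 4.11 and 2.62 CPM in the controls and 3.18, 4.76 and 3.50 CPM in the GR-cKO hearts. The 2 groups overlapped, with the lowest level in control replicate 3 and the highest in GR-cKO replicate 2, and the log2 fold change was 0.05 (95% interval -0.64 to 0.74). Hspa1b rested on 44, 30 and 10 reads in the controls and 17, 24 and 26 reads in the GR-cKO hearts. That is 1.92, 1.54 and 0.524 CPM in the controls and 0.949, 1.13 and 1.40 CPM in the GR-cKO hearts. The interval of its log2 fold change ran from -1.42 to 1.02 and a 2-fold difference was excluded in neither direction. The controls alone spanned the whole range of Hspa1b, replicate 3 being the lowest and replicate 1 the highest of the 6 hearts.

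The promoters of this pair are shown because the genes, although counted apart, share almost all of their upstream sequence: 296 of 300 bases were identical at the same position. Windows run from 250 bases before to 50 after the start in RefSeq (GRCm38.p6), 5′ to 3′ on the gene's strand. Capitals mark a match to GAANNTTC, 2 head-to-head units of the heat shock element, which heat shock factor binds.
Hspa1a (chr17:34972107-34972406, minus strand): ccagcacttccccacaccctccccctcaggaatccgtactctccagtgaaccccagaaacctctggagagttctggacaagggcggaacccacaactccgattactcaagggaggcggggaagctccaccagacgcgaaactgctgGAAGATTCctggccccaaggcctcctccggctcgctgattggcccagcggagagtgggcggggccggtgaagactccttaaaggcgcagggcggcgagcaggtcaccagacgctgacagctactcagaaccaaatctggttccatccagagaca
Hspa1b (chr17:34959189-34959488, minus strand): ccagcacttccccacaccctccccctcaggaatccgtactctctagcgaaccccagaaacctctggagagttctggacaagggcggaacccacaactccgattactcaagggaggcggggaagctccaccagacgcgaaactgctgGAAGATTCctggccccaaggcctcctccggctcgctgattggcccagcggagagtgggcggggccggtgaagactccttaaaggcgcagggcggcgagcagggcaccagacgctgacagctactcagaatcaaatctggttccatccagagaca
In both the match starts 104 bases before the start. GAANNTTC, which reads the same on both strands, occurred in 7.86% of the 32851 promoter windows and in 14 of the 39 windows of members. These belonged to 12 of the 26 members that had a window. Despite the shared promoter the last 500 bases of the 2 transcripts, where 3′ reads fall, had no stretch of 50 bases in common, so the reads can be told apart there.

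The other inducible members were more abundant. Hsph1 (Hsp105), the inducible Hsp110, was at 21.1, 21.2 and 15.8 CPM in the controls and 15.5, 25.2 and 13.0 CPM in the GR-cKO hearts. Its highest and lowest levels were both in GR-cKO hearts, replicates 2 and 3, and its log2 fold change was -0.11 (95% interval -0.57 to 0.35). Hspb1 (Hsp25 in the mouse), a small heat shock protein that protects actin filaments, was at 159.9, 217 and 156 CPM in the controls and 179.6, 173 and 154 CPM in the GR-cKO hearts. Control replicate 2 stood above the other 5 hearts, and without it the log2 fold change went from -0.07 to 0.10. The same library held the most RNA of the brown fat gene Ucp1, at 89.3 CPM against 0 to 18.8 CPM elsewhere; its part in the Hspb1 level was not tested. Of the last 500 bases of Hspb1 transcripts 39.2% of 50-base stretches also occur in Hsp25-ps1 or Gm9817, so its count is uncertain. Dnaja1, a J-domain protein that helps Hsp70 refold clients, was at 37.6 ± 8.06 against 38.7 ± 5.43 CPM, a log2 fold change of 0.04. An exon of Dnaja1 overlaps one of Smu1 on the opposite strand, which makes its count uncertain too.

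Dnajb1 (Hsp40), the main J-domain partner of inducible Hsp70, was the inducible member with the clearest separation. It was at 43.6, 45.4 and 41.0 CPM in the controls and 38.8, 35.5 and 35.0 CPM in the GR-cKO hearts. All 3 GR-cKO hearts lay below all 3 controls. On the log2 scale the difference was -0.25 (95% interval -0.52 to 0.02, SE 0.128), with an edgeR adjusted p of 0.998. With each library left out in turn the value ran from -0.29 to -0.21.

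As a list the 6 inducible genes had 4 fold changes below 0 and 2 above, with a median of -0.09. Over the alternatives 3 to 6 were below 0, the lowest median being -0.20 (without control replicate 3) and the highest 0.03 (without control replicate 1). All 6 were below 0 without control replicate 3 or without GR-cKO replicate 2, and 3 of 6 without control replicate 1, control replicate 2 or GR-cKO replicate 3. Their scores, the mean log2 CPM of the genes relative to the mean of the 6 hearts, were 0.21, 0.25 and -0.36 for the controls and -0.14, 0.14 and -0.10 for the GR-cKO hearts. Control replicate 3 was the lowest of the 6 and the other controls were the highest, so the control group alone spanned the whole range. Hearts also differed in immediate early genes, which respond within minutes to handling. Their list of 11 tested genes had scores of -0.01, -0.12 and -0.40 for the controls and -0.23, 0.13 and 0.62 for the GR-cKO hearts. Control replicate 3 was lowest on both lists. GR-cKO replicate 3, highest on the immediate early list, was below both of the higher controls and GR-cKO replicate 2 on the inducible list. All 11 immediate early genes had a fold change above 0, with a median of 0.36, and 7 of 11 with a median of 0.12 without GR-cKO replicate 3. No gene of that list passed over all genes; Nr4a1, a nuclear receptor, was at 11.6, 10.4 and 10.6 CPM in the controls and 12.6, 13.8 and 26.6 CPM in the GR-cKO hearts, and Junb, an AP-1 subunit, at 7.13 ± 0.784 against 10.4 ± 1.36 CPM. Ier3, another early response gene, was at 54.9, 49.4 and 61.6 CPM in the controls and 58.1, 62.2 and 108 CPM in the GR-cKO hearts. Without GR-cKO replicate 3, the highest heart for both, the log2 fold change of Nr4a1 went from 0.70 to 0.28 and that of Ier3 from 0.46 to 0.12. The part of handling in any chaperone level was not tested.

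**Figure D3:**
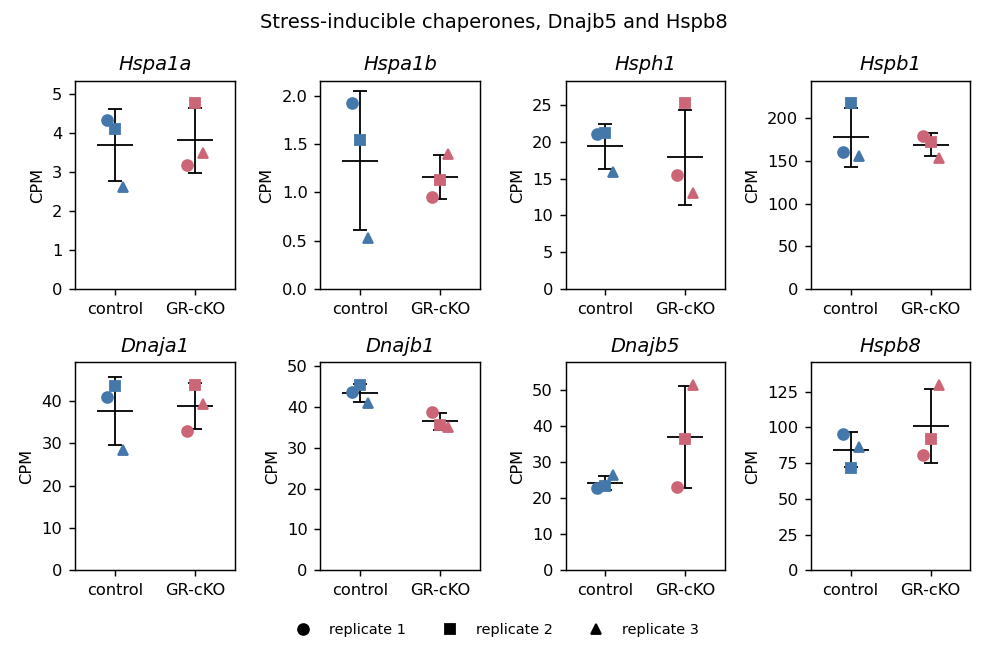
CPM of the 6 stress-inducible chaperones and of Dnajb5 and Hspb8 in each heart (points, shape by replicate), with the group mean and SD (black). Axes start at 0; only Dnajb1 separates the groups, while for Dnajb5 and Hspb8 the triangle of GR-cKO replicate 3 stands highest.

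The 2 heat shock factors overlapped between groups as well. Hsf1, the factor of the acute heat shock response, was at 7.52, 11.5 and 8.13 CPM in the controls and 6.98, 11.0 and 6.62 CPM in the GR-cKO hearts, with its highest levels in replicate 2 of each group. Hsf2, a developmental relative that can pair with Hsf1, was at 37.2 ± 1.38 against 37.4 ± 4.37 CPM, a log2 fold change of 0.01 (95% interval -0.27 to 0.29). A list of 13 partners and targets of heat shock factors had 11 tested genes, 4 above and 7 below 0, with a median of -0.01. With spike-in scaling 8 were above and 3 below 0. The 3 smallest p-values on it belonged to Stip1, which links Hsp70 to Hsp90, at 109.6 ± 14.6 against 122 ± 7.65 CPM, Cacybp at 47.6 ± 2.53 against 43.9 ± 0.939 CPM, and Hsp90aa1, the inducible Hsp90, at 90.8 ± 9.85 against 98.0 ± 15.1 CPM. Bag3, a nucleotide exchange factor that heat shock induces, was at 75.4 ± 9.15 against 74.9 ± 11.7 CPM, a log2 fold change of -0.01 (95% interval -0.29 to 0.27).

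Small heat shock proteins of muscle, which hold unfolding proteins of the sarcomere without ATP, had 3 fold changes above 0 and 1 just below it, with a median of 0.10, and none passed the test. Over the alternatives 0 to 1 were below 0, the lowest median being 0.05 (without control replicate 2) and the highest 0.15 (without GR-cKO replicate 2). It was 0.06 without GR-cKO replicate 3. Of the 8 cardiomyocyte markers 7 had a fold change above 0 as well, with a median of 0.12, and their part in these levels was not tested. Hspb8, which works with Bag3 to clear damaged filament proteins, was at 95.7, 71.9 and 86.2 CPM in the controls and 80.9, 92.2 and 129.9 CPM in the GR-cKO hearts. GR-cKO replicate 3 alone was above 100 CPM. The log2 fold change was 0.26 (95% interval -0.08 to 0.59) and 0.03 without that heart. Hspb6 (Hsp20), which is phosphorylated in beta-adrenergic signalling, was at 164 ± 12.9 against 172 ± 24.9 CPM, with a log2 fold change of 0.07. Hspb2, which binds the myotonic dystrophy kinase and whose gene overlaps an exon of Cryab on the opposite strand, was at 63.5 ± 6.57 against 69.6 ± 3.92 CPM. Hspb3, with which Hspb2 forms a complex, was at 13.4, 13.2 and 10.7 CPM in the controls and 9.83, 14.2 and 13.2 CPM in the GR-cKO hearts. The log2 fold changes of Hspb2 and Hspb3 were 0.13 and 0.00. Control replicate 2 had the lowest level of Hspb2, Hspb6 and Hspb8. Skeletal muscle also makes several of these proteins. Its 8 markers summed to 9.44 to 13.6 CPM in control and 11.2 to 18.6 CPM in GR-cKO hearts, highest in GR-cKO replicate 3. The 4 tested among them were all above 0, with a median of 0.33, and Myh1 was at 0 in 4 of the 6 hearts. Their part in the levels of Hspb8 and the others was not tested.

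Related small heat shock genes outside the 31 differed in both directions, none past the threshold. Hspb7, a heart-enriched member that binds filamin and actin, was at 759, 517 and 795 CPM in the controls and 957, 837 and 891 CPM in the GR-cKO hearts. All GR-cKO hearts lay above all controls, by 0.38 on the log2 scale (SE 0.139, edgeR adjusted p = 0.998), or by 0.20 without control replicate 2. Cryab, the abundant alpha B-crystallin of heart muscle, was at 1017, 1162 and 1064 CPM in the controls and 983, 972 and 1007 CPM in the GR-cKO hearts, here with all GR-cKO hearts below the controls and a log2 fold change of -0.13. Hsp90ab1, the constitutive Hsp90, was at 1736 ± 85.4 against 1857 ± 266 CPM, a log2 fold change of 0.10, or -0.03 without GR-cKO replicate 3.

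Constitutive cytosolic Hsp70 and Hsp110 genes overlapped between groups, with a median log2 fold change of -0.05. Hspa8 (Hsc70), the housekeeping Hsp70, was at 199.9, 231 and 220.4 CPM in the controls and 203, 204 and 243 CPM in the GR-cKO hearts, a log2 fold change of 0.00 (95% interval -0.25 to 0.24). Of the 50-base stretches in its last 500 bases 90.2% also occur in 1 or more of 13 other genes, so its count is uncertain. Hspa4 (Apg-2), a nucleotide exchange factor of the Hsp110 family, was at 137 ± 2.52 against 141 ± 12.6 CPM (95% interval of the log2 fold change -0.19 to 0.28). Hspa4l, its relative, was at 25.1, 28.5 and 26.7 CPM in the controls and 25.5, 21.7 and 19.5 CPM in the GR-cKO hearts. Only GR-cKO replicate 1 reached the controls' range, and the log2 fold change was -0.27 (95% interval -0.59 to 0.06). Hspa12a, a distant Hsp70, was at 28.9 ± 6.07 against 27.1 ± 3.83 CPM.

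Among the constitutive J-domain genes Dnajb5 had the largest difference. Its product binds Hsp70 and class II histone deacetylases in heart muscle. It was at 22.8, 23.3 and 26.5 CPM in the controls and 22.9, 36.5 and 51.3 CPM in the GR-cKO hearts. GR-cKO replicates 2 and 3 were above all controls, and GR-cKO replicate 1 was among them. On the log2 scale the difference was 0.61 (95% interval 0.12 to 1.10, SE 0.226), and the gene ranked 186 of 14860 by the edgeR test, with an adjusted p of 0.998. It rested in large part on 1 heart: the value was 0.30 without GR-cKO replicate 3 and 0.86 (edgeR adjusted p = 0.233) without GR-cKO replicate 1. Over all alternatives its adjusted p ran from 0.103 to 1. GR-cKO replicate 3 was also the heart with the most Gm42418 and the highest score on the immediate early list, and the part of these in the Dnajb5 level was not tested.

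The other 5 had fold changes between -0.19 and 0.07 on the log2 scale. Dnaja2, the most abundant of them and a refolding partner of Hsc70, was at 205 ± 17.4 against 215 ± 26.8 CPM (log2 fold change 0.07). Dnajb4 (HLJ1), a close relative of Dnajb1, was at 68.0, 67.2 and 74.0 CPM in the controls and 69.0, 55.5 and 59.3 CPM in the GR-cKO hearts, a log2 fold change of -0.19 (95% interval -0.44 to 0.07) with overlapping groups. Dnajb6, which holds back protein aggregation and sits at the Z-disc, was at 26.4 ± 2.05 against 25.7 ± 3.53 CPM, Dnajb2, which passes clients to ubiquitin ligases, at 48.1 ± 7.82 against 45.7 ± 9.09 CPM, and Dnaja4 at 54.3 ± 9.46 against 50.6 ± 2.17 CPM. Part of the 3′ end of Dnajb6 also occurs in 8 other genes, and an exon of Dnaja4 overlaps Wdr61 on the opposite strand, so both counts are uncertain. Constitutive is the label of this list and not a measured trait. Promoter windows of Dnaja4 held GAANNTTC (7.86% of all windows), and those of Dnajb4 the tail-to-tail pair TTCNNGAA (8.52%). Of 35 further J-domain genes 30 were tested, 18 above and 12 below 0, with a median of 0.02. With spike-in scaling 22 were above and 8 below 0. With library totals it was 13 and 17. The smallest p-values there belonged to Dnajc7, which acts with Hsp70 and Hsp90 on steroid receptors (159 ± 28.5 against 197 ± 19.7 CPM), Dnajc19 of the mitochondrial import motor (38.2 ± 1.61 against 31.6 ± 8.45 CPM) and Dnajc12 (4.30 ± 0.937 against 2.97 ± 0.569 CPM).

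All 5 chaperones of the ER had a fold change below 0. Their median was -0.16 on the log2 scale, against 0.01 over all tested genes, and none passed the test. Dnajb9 (ERdj4), a J-domain protein that the unfolded protein response induces through Xbp1, had the largest difference. It was at 28.4, 28.6 and 34.1 CPM in the controls and 19.4, 22.0 and 24.9 CPM in the GR-cKO hearts. Every GR-cKO heart lay below every control. On the log2 scale the difference was -0.46 (95% interval -0.78 to -0.14, SE 0.153), and the gene ranked 70 of 14860 by the edgeR test, with an adjusted p of 0.998. With each library left out it ran from -0.55 to -0.36.

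The abundant members of the ER set differed less. Hspa5 (BiP), the ER Hsp70, whose binding holds the sensors of the unfolded protein response inactive, carried 19.8% of the summed level of the 31 genes. It was at 759, 628 and 630.5 CPM in the controls and 559.8, 655 and 595 CPM in the GR-cKO hearts. Control replicate 1 was the highest, the GR-cKO hearts overlapped the other controls, and the log2 fold change of -0.16 (95% interval -0.40 to 0.08) became -0.06 without that control. Hsp90b1 (Grp94), the ER Hsp90, was at 253, 269 and 247 CPM in the controls and 231, 238 and 220.0 CPM in the GR-cKO hearts. The groups did not overlap, and the log2 fold change was -0.16 (95% interval -0.38 to 0.07). Exons of Hsp90b1 overlap those of 1810014B01Rik on the opposite strand and Gm15344 on its own, so its count is uncertain. Dnajc3 (p58IPK), which inhibits the kinase PERK, was at 44.0 ± 4.33 against 41.9 ± 3.42 CPM, and Hspa13, a small ER-associated Hsp70, at 16.5 ± 2.00 against 15.2 ± 2.45 CPM. Their log2 fold changes were -0.07 and -0.12. That of Hspa13 was 0.00 without GR-cKO replicate 3, and that of Dnajc3 was 0.01 without control replicate 2. Each of these settings left 4 of the 5 below 0.

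Promoters of 3 of these genes are shown because they carry the ER stress element, CCAAT and CCACG separated by 9 bases of any kind, through which the unfolded protein response acts. Capitals mark each match on either strand.
Hspa5 (chr2:34771840-34772139, plus strand): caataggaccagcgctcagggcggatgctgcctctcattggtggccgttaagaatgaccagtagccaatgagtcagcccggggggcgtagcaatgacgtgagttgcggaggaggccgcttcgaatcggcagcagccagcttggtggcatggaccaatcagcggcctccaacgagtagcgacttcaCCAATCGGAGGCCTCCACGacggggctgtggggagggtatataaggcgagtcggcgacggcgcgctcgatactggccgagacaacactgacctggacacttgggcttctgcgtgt
Hsp90b1 (chr10:86705395-86705694, minus strand): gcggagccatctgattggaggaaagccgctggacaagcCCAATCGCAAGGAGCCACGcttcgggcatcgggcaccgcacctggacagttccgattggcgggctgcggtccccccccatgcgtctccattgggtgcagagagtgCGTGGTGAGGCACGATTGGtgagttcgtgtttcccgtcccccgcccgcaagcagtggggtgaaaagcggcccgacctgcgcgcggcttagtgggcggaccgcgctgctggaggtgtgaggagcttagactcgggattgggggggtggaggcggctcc
Dnajc3 (chr14:118937682-118937981, plus strand): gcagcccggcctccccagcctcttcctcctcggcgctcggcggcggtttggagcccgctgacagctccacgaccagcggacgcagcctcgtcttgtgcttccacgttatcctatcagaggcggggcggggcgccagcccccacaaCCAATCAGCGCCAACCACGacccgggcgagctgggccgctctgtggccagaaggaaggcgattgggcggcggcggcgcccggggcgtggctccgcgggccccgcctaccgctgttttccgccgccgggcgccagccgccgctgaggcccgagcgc
The element occurred in 0.119% of all 32851 windows and in 3 of the 39 windows of members. These belonged to 3 of the 26 members with a window, all 3 of them ER chaperones, with 2 matches in Hsp90b1. The element holds the CCAAT box, which alone occurred in 37.4% of windows. A Dnajb9 window held a CCAAT box but not these letters in full. Hspa8, Hspa9, Hspa13, Hspb2 and Hsf1 had no window. The letters GNACA and TGTNC separated by 3 bases of any kind, a loose form of the element that the glucocorticoid receptor binds, occurred in 0.475% of all windows and in those of 0 of the 26 members.

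Other genes of the ER stress response, from a list of 21 that were all tested, were mostly below 0. Of these 15 had a fold change below 0 and 6 above, with a median of -0.14. Over the alternatives 13 to 19 were below 0, the lowest median being -0.17 (with library totals only) and the highest -0.08 (without GR-cKO replicate 2). It was 19 of 21 without GR-cKO replicate 3, 14 of 21 without GR-cKO replicate 2, control replicate 1 or control replicate 3, and 13 of 21 with spike-in scaling (median -0.08). None passed over all genes, and 1 in each direction had an unadjusted p under 0.05, against 2.07% higher and 2.13% lower over all tested genes. Xbp1, the transcription factor that drives ER chaperones and Dnajb9, was at 90.5, 90.6 and 79.2 CPM in the controls and 61.9, 83.3 and 66.0 CPM in the GR-cKO hearts, a log2 fold change of -0.30 (edgeR adjusted p = 0.998). GR-cKO replicate 2 overlapped the controls. Atf4, the factor of the translational arm, had the opposite sign, at 95.3, 98.4 and 92.8 CPM in the controls and 103, 102 and 145 CPM in the GR-cKO hearts and a log2 fold change of 0.29 (edgeR adjusted p = 0.998). Every GR-cKO heart lay above every control, replicate 3 the highest, and without that heart the value was 0.10. Creld2, an ER stress-induced secreted protein, was at 6.60 ± 1.51 against 4.54 ± 1.15 CPM (log2 fold change -0.54). Of the 21 genes 4 had every GR-cKO heart below every control, where 5.27% of all tested genes did so: Creld2 and 3 more that are named here after their values were seen. These were Calr, the lectin chaperone calreticulin, at 398, 357 and 372 CPM in the controls and 331, 348 and 320.3 CPM in the GR-cKO hearts, Pdia6, a disulfide isomerase, at 144, 137 and 134 CPM in the controls and 118, 132 and 114 CPM in the GR-cKO hearts, and Syvn1, a ubiquitin ligase of ER-associated degradation, at 45.2 ± 2.29 against 40.2 ± 2.23 CPM.

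**Figure D4:**
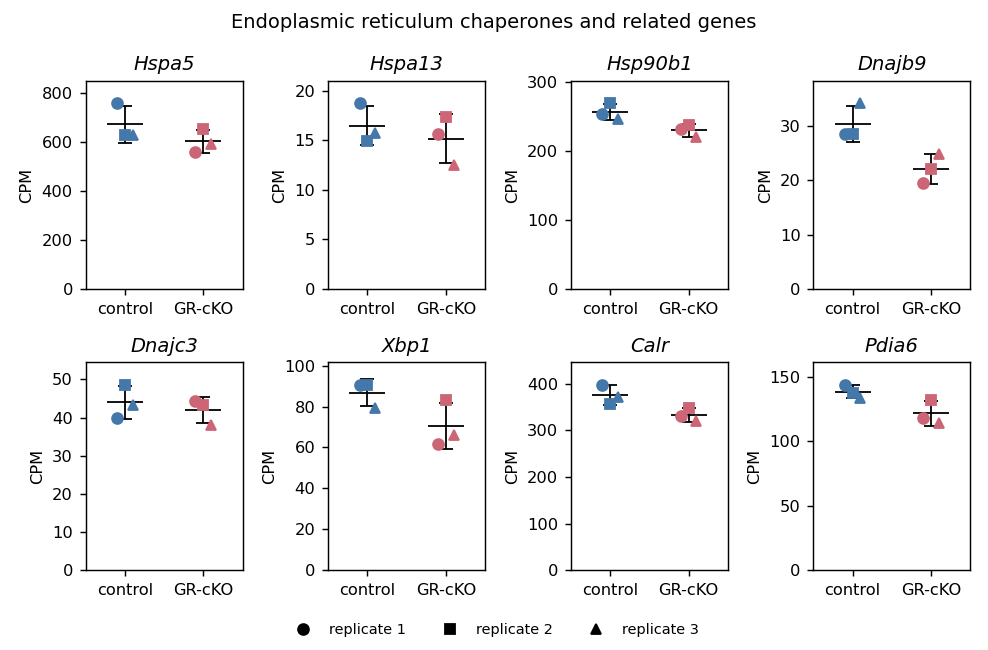
CPM of the 5 ER chaperones and of Xbp1, Calr and Pdia6 in each heart (points, shape by replicate), with the group mean and SD (black). Calr and Pdia6 were chosen after their values were seen. Not drawn are the 6 of 21 ER stress response genes with a fold change above 0, among them Atf4. Axes start at 0; the groups do not overlap for Hsp90b1, Dnajb9, Calr and Pdia6, and the differences are small beside the level of each gene except for Dnajb9.

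The scores of the 5 ER members were 0.12, 0.08 and 0.09 for the controls and -0.12, -0.01 and -0.16 for the GR-cKO hearts. Every control was above every GR-cKO heart, and GR-cKO replicate 2 was nearest to the controls. Summed levels of these 5 overlapped, at 1099, 989 and 971 CPM in the controls and 870, 975 and 890 CPM in the GR-cKO hearts. The 21 ER stress genes share no gene with the 5. The scores of the 21 were 0.08, 0.05 and 0.07 for the controls and -0.08, -0.04 and -0.07 for the GR-cKO hearts. Both lists were scored in the same libraries and chosen with earlier results known, so the second score is not independent of the first. Of all tested genes 9.97% separated the groups in either direction. How often the score of a list does so by chance was not tested. The sums of the 21 overlapped, at 1716, 1615 and 1660 CPM in the controls and 1526, 1584 and 1698 CPM in the GR-cKO hearts. ER chaperones are abundant in secretory cells, and fibroblast markers, 4 genes including Col1a1, summed to 1693 to 2158 CPM in control and 1688 to 1919.7 CPM in GR-cKO hearts, with 2 of 4 fold changes below 0. Endothelial markers, another 4, summed to 1196 to 1329 and 1186 to 1361 CPM, with 3 of 4 below 0. Both sums overlapped between groups. Those of 2 other lists did not. Macrophage markers, 4 genes with 2 fold changes above 0, summed to 57.7 to 62.4 CPM in control and 62.5 to 76.7 CPM in GR-cKO hearts. By score they overlapped, at -0.06, 0.11 and -0.14 for the controls and -0.05, -0.01 and 0.15 for the GR-cKO hearts. The 4 neutrophil markers summed to 12.0 to 14.2 CPM in control and 19.1 to 26.3 CPM in GR-cKO hearts, with 4 of 4 fold changes above 0 (median 0.69). Cardiomyocyte markers overlapped in sum, with 7 of 8 above 0. The part of cell composition in the ER levels was not tested.

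The 4 mitochondrial chaperones also all had a fold change below 0, and none passed the test. Hspd1 (Hsp60) and Hspe1 (Hsp10) form the chamber in which matrix proteins fold. Hspd1 was at 139, 141 and 131 CPM in the controls and 123, 125 and 119 CPM in the GR-cKO hearts, with every GR-cKO heart below every control and a log2 fold change of -0.17 (95% interval -0.40 to 0.06). Hspe1 was at 108, 123 and 99.3 CPM in the controls and 91.4, 108 and 93.2 CPM in the GR-cKO hearts, with overlapping groups and a log2 fold change of -0.18; 53.2% of the 50-base stretches at its 3′ end also occur in 1 or more of 6 other genes, so its count is uncertain. Dnaja3 (Tid1), the J-domain protein of the matrix, was at 47.4 ± 6.32 against 41.0 ± 5.54 CPM, a log2 fold change of -0.21 (95% interval -0.51 to 0.09). Hspa9 (mortalin), the matrix Hsp70 that pulls proteins in, was at 491, 498 and 489 CPM in the controls and 473, 460.3 and 494 CPM in the GR-cKO hearts and had the smallest difference of the 4, -0.05 (95% interval -0.27 to 0.17), which excluded a change of 1.5-fold. The median of the 4 was -0.17. Control replicate 2 held the highest level of all 4 genes. Summed, the 4 were at 781, 818 and 765 CPM in the controls. In the GR-cKO hearts the sums were 723, 739 and 746 CPM, without overlap. Their scores did overlap, at 0.038, 0.186 and 0.005 for the controls and -0.145, 0.007 and -0.09 for the GR-cKO hearts. Over the alternatives 4 were below 0, the lowest median being -0.22 (without GR-cKO replicate 2) and the highest -0.09 (without control replicate 2). Without control replicate 2 Hspe1 was at -0.09 and Dnaja3 at -0.09 on the log2 scale.

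Hspd1 and Hspe1 lie head to head on chromosome 1 and are transcribed apart from a common stretch. The Hspe1 window is shown because it holds 2 overlapping matches to the 3-unit heat shock element, and the same bases fall in the window of a second Hspd1 start on the other strand. Capitals mark matches to GAANNTTC followed after 2 bases of any kind by GAA, 3 units of the element, on either strand. That form contains the 2-unit form. Hsph1 is shown beside it as the inducible member with such a match, which lies after the start.
Hspe1 (chr1:55087898-55088197, plus strand): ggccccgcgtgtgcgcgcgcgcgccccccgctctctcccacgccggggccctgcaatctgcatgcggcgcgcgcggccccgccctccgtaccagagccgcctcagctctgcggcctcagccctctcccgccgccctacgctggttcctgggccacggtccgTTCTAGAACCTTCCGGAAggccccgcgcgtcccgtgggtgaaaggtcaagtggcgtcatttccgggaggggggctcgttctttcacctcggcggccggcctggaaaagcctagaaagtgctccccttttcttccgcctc
Hsph1 (chr5:149636287-149636586, minus strand): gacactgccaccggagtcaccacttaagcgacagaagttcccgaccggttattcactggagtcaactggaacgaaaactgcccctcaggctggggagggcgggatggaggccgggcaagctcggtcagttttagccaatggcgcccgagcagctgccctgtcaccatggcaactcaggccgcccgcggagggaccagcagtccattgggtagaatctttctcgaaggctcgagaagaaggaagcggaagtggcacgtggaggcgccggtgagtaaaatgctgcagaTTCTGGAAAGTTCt
In Hspe1 the matches together span 55088059 to 55088076. The 3-unit form occurred in 0.603% of all windows and in 6 of the 39 windows of members. These belonged to 4 of the 26 members, namely Hspd1 and Hspe1, through the same bases, Hsph1 and Dnajb6. The tail-to-tail pair TTCNNGAA occurred in 8.52% of windows and in 7 of the 39 windows of members, from 5 of 26 members. The Dnajb1 windows held none of the 3 forms. None of these 4 genes passed the test, and all 4 lay below 0, as 22 of the 31 did: the log2 fold changes of Hspd1, Hspe1, Hsph1 and Dnajb6 were -0.17, -0.18, -0.11 and -0.04, the last 2 with intervals of -0.57 to 0.35 and -0.36 to 0.28.

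Further mitochondrial quality control genes, a list of 12, had 7 fold changes below 0 and 5 above, with a median of -0.01. With spike-in scaling 8 were above and 4 below 0. Clpx, which unfolds proteins for the matrix protease, was at 34.7 ± 4.34 against 28.4 ± 5.77 CPM, Htra2, a protease of the intermembrane space, at 28.4 ± 1.46 against 32.3 ± 1.58 CPM, and Atf5, a factor of the mitochondrial stress response, at 41.1 ± 7.28 against 47.0 ± 5.23 CPM. All genes of the mitochondrial genome took 6.80 to 7.01% of reads in control and 6.17 to 6.65% in GR-cKO hearts, ranges that do not overlap, and the part of this in the chaperone levels was not tested.

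**Figure D5:**
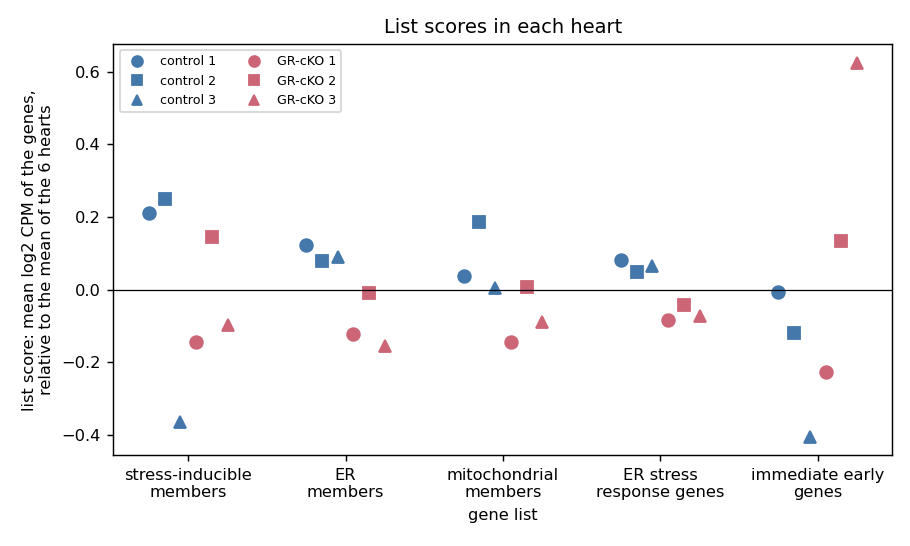
Score of each gene list (mean log2 CPM of its tested genes, relative to the mean of the 6 hearts) in each heart, blue for control and red for GR-cKO, shape by replicate. Scores of the ER members and of the ER stress response genes do not overlap between groups. Those of the stress-inducible members, the mitochondrial members and the immediate early genes do. Control replicate 3 is lowest for the stress-inducible members and the immediate early genes.

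Cofactors of Hsp70 and Hsp90 had no common direction. Of 18, all tested, 8 were above and 10 below 0, with a median of -0.01. With spike-in scaling 13 were above and 5 below 0. The smallest p was that of Fkbp5, a receptor co-chaperone that glucocorticoids induce, at 12.7, 12.7 and 11.6 CPM in the controls and 10.4, 9.10 and 6.51 CPM in the GR-cKO hearts, with every GR-cKO heart below every control (log2 fold change -0.51, edgeR adjusted p = 0.998). Sgta, which hands tail-anchored proteins on, was at 144, 139.9 and 144 CPM in the controls and 156, 143 and 225 CPM in the GR-cKO hearts. GR-cKO replicate 3 stood above the rest, and without it the log2 fold change went from 0.29 to 0.07. Stub1, the ubiquitin ligase of chaperone clients, was at 131 ± 24.7 against 157 ± 5.92 CPM, a log2 fold change of 0.26, or 0.11 without control replicate 2. The subunits of the cytosolic chaperonin and of prefoldin, which fold actin and tubulin, were split 7 to 7 of 14 with a median of 0.01, and 4 to 10 with a median of -0.04 without GR-cKO replicate 3. Vbp1 (51.7 ± 8.67 against 42.3 ± 5.74 CPM), Cct5 (76.0 ± 4.49 against 86.9 ± 5.89 CPM) and Cct2 (96.4 ± 6.26 against 85.6 ± 2.58 CPM) had the smallest p-values of that list, and none passed.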

How the data were processed

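Each deposited file lists, for 1 library, counts of reads per Ensembl gene as whole numbers without normalization. The submitters' processing notes name, with no order, STAR 2.5.4a, GRCm38, featureCounts 1.6.2, cutadapt 1.16, DESeq2 1.18.1, bcl2fastq, MultiQC 1.5 and FastQC 0.11.7. Annotation release and strand setting: not given in the sources used here. Symbols and coordinates came from GENCODE M21. The 92 ERCC and 7 SIRV spike-in rows (1.63 to 2.01% of reads) were left out.

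Genes kept by filterByExpr were scaled by TMM and, in edgeR 4.0.16 (R 4.3.3), tested with the robust quasi-likelihood F test, Benjamini-Hochberg adjusted over all 14860 genes at 0.05. Fold changes are GR-cKO over control. List scores used log2 CPM with a prior count of 2. Intervals are for the difference between groups, with the spread between libraries estimated in part from all genes. The fit was tested on simulated data with changes of 2-fold or more in genes above the median level. That says nothing about smaller differences, such as most of those reported here, or about scarcer genes. DESeq2 1.42.0, limma 3.58.1, other scalings, no filter, a replicate block and leaving out each library were the alternatives.

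Every member was named. Of 8 other lists, 126 genes in all, the genes of smallest unadjusted p were named, up to 3 a list, with Hsp90aa1, Hsp90ab1, Cryab and Bag3. Members and lists were chosen with earlier results of these data known. The main fit did not pair libraries by replicate number.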

Additional observations from a re-analysis of the deposited data

How the results depend on the processing

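No member was called under any alternative tried. The count of all genes called higher was 0, but 1 with DESeq2 and 4 with no low-count filter; of genes called lower it was 1, but 3 with DESeq2, 2 with library totals and 6 with no filter, and 1 to 2 with a library left out. Members at an unadjusted p under 0.05 were 1 higher and 1 lower; 2 were higher with no filter and 0 lower with spike-in scaling, and with a library left out the numbers ran from 0 to 2 in each direction. The median log2 fold change of the ER members was -0.16, -0.10 with spike-in scaling and -0.223 to -0.127 with a library left out, the lower value without GR-cKO replicate 2. That of the constitutive Hsp70 and Hsp110 genes was -0.05, from -0.159 to 0.017 with a library left out (lowest without control replicate 1, highest without control replicate 3). The median of all genes was 0.01, -0.03 with library totals and 0.055 with spike-in scaling. The cause of these shifts was not tested.

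Some uncalled members changed sign. Hspb3 was at 0.001 with DESeq2 and with its size factors in edgeR and at 0.054 with spike-in scaling, Hspa8 at 0.002, 0.002 and 0.034, and Hsf2 at -0.032 with library totals. Leaving out single libraries gave either sign for Hspa1a (from -0.147 to 0.181), Hspa1b (from -0.577 to 0.163), Hsph1 (from -0.448 to 0.073), Hspb1 (from -0.161 to 0.097), Dnaja1 (from -0.123 to 0.160), Hspb3 (from -0.114 to 0.142), Hspb6 (from -0.053 to 0.140), Hspa8 (from -0.092 to 0.046), Hspa4 (from -0.033 to 0.096), Hspa12a (from -0.259 to 0.023), Dnaja2 (from -0.037 to 0.134), Dnajb2 (from -0.247 to 0.051), Dnajb6 (from -0.134 to 0.064), Hspa13 (from -0.229 to 0.002), Dnajc3 (from -0.135 to 0.009), Hsf1 (from -0.415 to 0.073) and Hsf2 (from -0.077 to 0.094).

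Deviations from the group means were nearly uncorrelated between same-numbered libraries (Pearson's r across genes 0.06, 0.06 and 0.01 for numbers 1, 2 and 3). Between differently numbered libraries r ran from -0.09 to 0.03. Values this small cannot exclude a pairing. With the replicate number as a block 0 members were called, 1 higher and 1 lower had an unadjusted p under 0.05, and 0 genes were called higher and 1 lower over all genes. Hspa1b had the fewest reads of the members, 10 to 44 a library.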
